A study of Homo sapiens with 12 samples.

Results

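The cardiac myosin heavy and light chains of human embryonic stem cell cultures were followed through cardiac differentiation by bulk RNA sequencing. The members were the genes whose symbol in the deposited table was MYH6, MYH7, MYH7B, MYL2, MYL3, MYL4 or MYL7, which gave 7 of 61806 genes. All 7 passed the filter on low counts, among 19505 genes tested.

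Cells of the established, unmodified human embryonic stem cell line H1 were treated with the GSK3 inhibitor CHIR99021 at 5 µM on Day 0 and with insulin on Day 1 in every group. In NP-IWP2 the culture was not passaged (static) and received IWP2, an inhibitor of WNT secretion, at 3 µM from Day 2 to Day 4. In P-DF the cells were passaged on Day 2 into DF medium with no IWP2, and in P-IWP2 they were passaged on Day 2 and given IWP2. Each of these 3 cultures was sampled on Day 12 and on Day 16, with 2 libraries in each of the 6 groups. NP-IWP2 therefore differs from P-DF in passaging and in IWP2 at once, and all groups come from 1 cell line. Passaged cells may also have received the ROCK inhibitor Y27632, which the authors added in their later differentiation experiments, or insulin, which they used in some. The passaged and static groups may therefore differ in these too. Nothing in the labels says that the 2 libraries of a group came from separate cultures, so the p-values measure the spread between these libraries, which may be technical.

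A myosin motor of the sarcomere is built from a pair of heavy chains, and each heavy chain carries a regulatory and an essential light chain. The heart uses different genes for these chains in different chambers and at different ages. MYH6 encodes the fast alpha heavy chain, which is the main form in atrial muscle, and MYH7 encodes the slow beta heavy chain, which dominates the human ventricle. MYL7 and MYL4 encode the atrial regulatory and essential light chains, and MYL2 and MYL3 encode the ventricular ones. In the early heart the atrial light chains are also made in ventricular muscle, and MYL2 appears late and stays in the ventricle. MYH7B is an ancient relative of MYH7 that is known chiefly as the host of a microRNA.

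Between 14885589 and 19176239 counts were assigned per library (median 16452289), and 3 counts correspond to between 0.156 and 0.202 CPM (counts on a scale common to all libraries). Levels are given as FPKM, counts per length of exon and per library total, so that genes can be compared per length. The read length and the fragmentation of the cDNA are not given in the sources used here, and the kit named in the labels is made for long reads. If reads spanned whole transcripts, counts and not FPKM would be the measure for comparing genes, so the isoform shares are given on both scales. Library replicate 5 of P-IWP2 on Day 12 stood apart from the others. The 7 genes took 0.754% of its counts, against at least 1.57% in each of the other 5 Day 12 libraries. Among the genes described here and in the lists, IRX4, a ventricular transcription factor, was at 0.04 FPKM in it and at 20.2 to 68.4 in the others of that day. NR2F1, an atrial transcription factor, was at 55.6 FPKM in it and at 0 to 0.92 in the others. These 2 genes were chosen after their values were seen, and they do not stand for the atrial and ventricular lists, whose genes did not all differ in this way. The summed level of epicardial markers was 139.9 FPKM in replicate 5, the highest of the 12 libraries. It was 0.76 in its partner and 40.2 to 61.1 in the static libraries of that day. The summed level of fibroblast markers was 755 FPKM in this library and 44.3 in its partner, but 794 and 783 in the static libraries of that day. Most of the 755 was collagen, with COL3A1 at 457 FPKM and COL1A1 at 176. The sum of the cardiomyocyte reference genes was 1715 FPKM in this library against 3886 in its partner. Results that rest on this library are given with and without it where leaving it out changed a call or moved a value by over 1.5 times.

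The 2 main heavy chain genes lie side by side on the minus strand of chromosome 14 (hg38), MYH6 (ENSG00000197616) at chr14:23381982-23408273 and MYH7 (ENSG00000092054) at chr14:23412740-23435660, with 4466 bases between them. MYH7B (ENSG00000078814) lies at chr20:34955810-35002437 on the plus strand. The light chain genes are MYL2 (ENSG00000111245, chr12:110910819-110921443, minus), MYL3 (ENSG00000160808, chr3:46835111-46882172, minus), MYL4 (ENSG00000198336, chr17:47200446-47223679, plus) and MYL7 (ENSG00000106631, chr7:44138864-44141332, minus). Each heavy chain gene carries a microRNA in an intron: miR-208a in intron 29 of MYH6, miR-208b in intron 30 of MYH7 and miR-499a in intron 22 of MYH7B. The RefSeq mature sequences (GRCh38.p14) of these myosin-encoded microRNAs are shown because the seeds group them, those of MYH6 and MYH7 together and that of MYH7B apart. Capitals mark bases 2 to 8, the seed.
miR-208a-3p, chr14:23388602-23388623, minus: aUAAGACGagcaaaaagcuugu
miR-208b-3p, chr14:23417997-23418018, minus: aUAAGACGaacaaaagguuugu
miR-499a-5p, chr20:34990408-34990428, plus: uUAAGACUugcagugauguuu

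The miRNAs of MYH6 and MYH7 share the seed UAAGACG, which no other of 2351 distinct mature miRNAs in the table holds, so that 2 hold it in all. Over their 22 bases they differ at 3 positions counted from the 5′ end, G10A, A16G and C18U, with the base of miR-208a-3p first. The seed of miR-499a-5p, UAAGACU, is held by 1. The mature miRNAs were not measured by these libraries. Counts on their hairpin genes were low, at 3 to 58 for MIR208A, 0 to 5 for MIR208B and 0 to 1 for MIR499A.

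Upstream sequences are shown for MYH6 and MYL7, the atrial heavy chain and the atrial regulatory light chain, because their levels differed between the days in opposite directions in the passaged cultures. Promoter entries were at hand for MYH6, MYL3 and MYL7. The lines below hold the 250 bases before the RefSeq start (GRCh38.p14), read 5′ to 3′ on the gene's own minus strand, and capitals mark matches to the motifs searched.
MYH6, chr14:23408274-23408523: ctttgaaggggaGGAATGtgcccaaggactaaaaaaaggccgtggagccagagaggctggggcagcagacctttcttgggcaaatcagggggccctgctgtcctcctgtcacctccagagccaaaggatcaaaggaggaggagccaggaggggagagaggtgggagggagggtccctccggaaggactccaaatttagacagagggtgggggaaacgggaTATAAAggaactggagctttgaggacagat
MYL7, chr7:44141333-44141582: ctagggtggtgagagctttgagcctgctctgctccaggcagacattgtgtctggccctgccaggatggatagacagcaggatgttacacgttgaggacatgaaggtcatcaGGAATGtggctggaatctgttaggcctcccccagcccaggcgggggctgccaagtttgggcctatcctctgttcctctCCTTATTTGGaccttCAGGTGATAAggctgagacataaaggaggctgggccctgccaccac

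In MYH6 the capitals are a CATTCC match on the other strand, the letters of the TEAD site, 238 to 233 bases before the start, and a TATAAA match 30 to 25 bases before it. In MYL7 they are a CATTCC match on the other strand at 139 to 134 bases, a CArG box at 61 to 52, a CANNTG match (an E-box) at 46 to 41 and a GATAA match at 41 to 37, the last 2 sharing 1 base. Of 35116 promoter windows of this length, 11.9% hold CATTCC, 10.7% TATAAA, 1.16% a CArG box, 61.8% CANNTG and 20.4% GATAA on either strand. A MEF2 site was also searched, and 2.80% of windows hold it. A match describes the letters and not the binding of a factor.

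MYH6 was the main heavy chain transcript on Day 12 and a minor one in the passaged cultures on Day 16. On Day 12 its level was 1613 and 1396 FPKM in NP-IWP2, 1650 and 1748 in P-DF and 737 and 1709 in P-IWP2. On Day 16 it was 436 and 417 FPKM in NP-IWP2, 109 and 71.0 in P-DF and 91.3 and 146 in P-IWP2. Every Day 16 library lay below every Day 12 library, and on Day 16 the 4 passaged libraries lay below both static ones. The mean level was 18.9-fold lower on Day 16 than on Day 12 in P-DF, 10.3-fold lower in P-IWP2 (14.4-fold without replicate 5) and 3.53-fold lower in NP-IWP2. The 2 passaged groups of Day 16, at 89.9 ± 26.8 and 119 ± 38.9 FPKM (SD, n = 2), overlapped, and so did P-IWP2 with both other groups on Day 12. Here and below, the share of all genes whose groups do not overlap was not computed, so such orders are a description only.

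MYH7 took the opposite course. Its level on Day 12 was 54.4 and 37.9 FPKM in NP-IWP2, 121 and 88.9 in P-DF and 7.06 and 108 in P-IWP2. On Day 16 it was 695 and 351 FPKM in NP-IWP2, 2613 and 2340 in P-DF and 2637 and 2318 in P-IWP2. The 4 passaged Day 16 libraries lay within 2318 to 2637 FPKM, apart from both static ones, and no Day 16 library overlapped any of Day 12. Mean levels on Day 16 were 2476 ± 193 FPKM in P-DF and 2477 ± 226 in P-IWP2 (SD, n = 2), which differed by less than their spread, and 523 ± 243 in NP-IWP2. The Day 16 mean was 23.6-fold that of Day 12 in P-DF, 43.0-fold in P-IWP2 and 11.3-fold in NP-IWP2. Without replicate 5 the fold in P-IWP2 was 22.9.

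MYH7B stayed low throughout. It ranged from 7.28 FPKM in P-IWP2 replicate 5 of Day 12 to 17.8 in P-DF on Day 16. On Day 16 it was 9.12 and 9.53 FPKM in NP-IWP2, 17.8 and 16.1 in P-DF and 13.8 and 10.1 in P-IWP2, so that the 4 passaged libraries lay above both static ones and P-DF above P-IWP2. By edgeR, P-IWP2 was not told from NP-IWP2 (adjusted p = 0.195) or from P-DF (adjusted p = 0.772) on that day. The ends of MYH7B overlap the genes GSS and TRPC4AP on the opposite strand, and whether the counting used the strand is not stated in the sources used here.

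**Figure D1:**
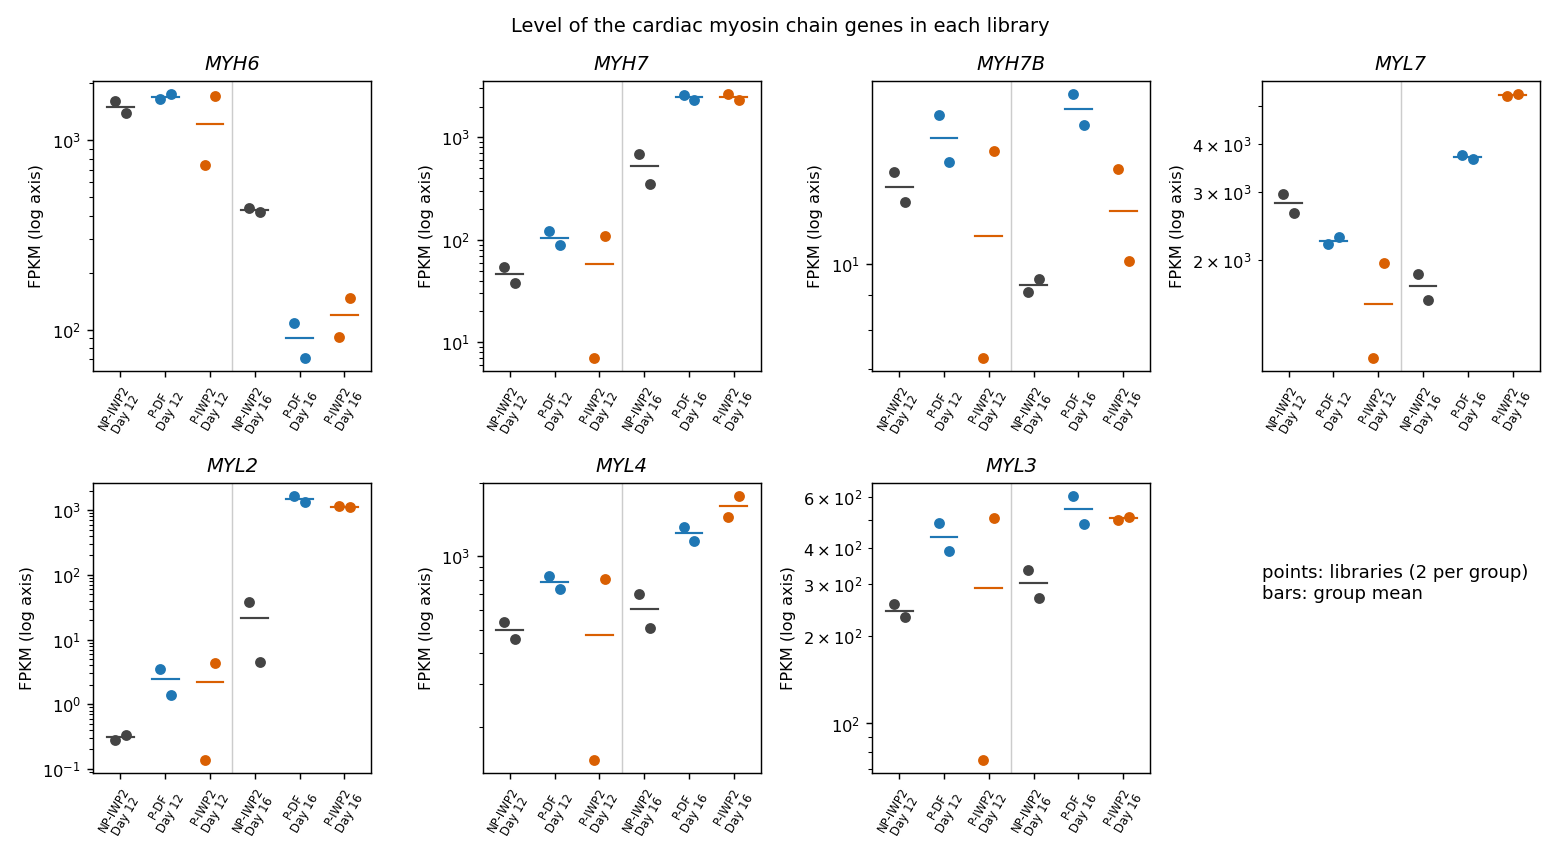
FPKM of each of the 7 myosin genes (log axis) in the 6 groups; points are libraries and bars are group means (n = 2). MYH6 lies at 737 to 1748 FPKM on Day 12 and at 71.0 to 436 on Day 16, MYH7 and MYL2 lie far higher on Day 16, and the lower point of P-IWP2 on Day 12 is replicate 5 in each gene.

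MYL7, the atrial regulatory light chain, was the most abundant of the 7 in mean FPKM in all 6 groups. In counts, which are not per length, it was first in no library. MYH6 stood above it in all Day 12 libraries and in both static ones of Day 16 (60611 and 48822 against 51076 and 36863). MYH7 stood above it in every passaged library of Day 16 (253545 against 87801 in P-DF replicate 3). On Day 12 MYL7 was at 2956 and 2637 FPKM in NP-IWP2, 2199 and 2283 in P-DF and 1113 and 1957 in P-IWP2. On Day 16 it was at 1836 and 1573 FPKM in NP-IWP2, 3740 and 3646 in P-DF and 5313 and 5369 in P-IWP2. The order of the groups was thus turned between the days, with static above P-DF above P-IWP2 on Day 12 and P-IWP2 above P-DF above static on Day 16. No 2 groups of a day overlapped in MYL7.

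MYL2, the ventricular regulatory light chain, was close to absent on Day 12. It had 7 and 8 counts in NP-IWP2, 75 and 31 in P-DF and 3 and 100 in P-IWP2, or 0.14 to 4.27 FPKM. The 95% exact Poisson interval of the 3 counts runs from 0.619 to 8.77 and covers counting error only, so this library could not be told from the static ones. On Day 16 the gene was at 38.7 and 4.52 FPKM in NP-IWP2, 1662 and 1360 in P-DF and 1147 and 1121 in P-IWP2. Passaged and static libraries did not overlap on that day, and P-DF lay above P-IWP2. The mean of P-DF was 70.0-fold and that of P-IWP2 52.5-fold that of NP-IWP2, whose 2 libraries themselves lay far apart (21.6 ± 24.1 FPKM, SD, n = 2).

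Both essential light chains were present in every library. MYL4, the atrial one, was at 538 and 457 FPKM in NP-IWP2, 830 and 733 in P-DF and 146 and 807 in P-IWP2 on Day 12. On Day 16 it was at 701 and 509 FPKM in NP-IWP2, 1323 and 1154 in P-DF and 1441 and 1766 in P-IWP2, with the groups in that order and no overlap. MYL3, the ventricular one, was at 256 and 231 FPKM in NP-IWP2, 486 and 390 in P-DF and 75.2 and 506 in P-IWP2 on Day 12. On Day 16 it was at 336 and 270 FPKM in NP-IWP2, 603 and 483 in P-DF and 500 and 509 in P-IWP2. Both passaged groups lay above the static one on Day 16, and they overlapped each other. MYL3 was lower than MYL4 in FPKM in all 12 libraries, an order that depends on the exon lengths: in counts it was higher in P-DF replicate 3 (20266 against 20208) and P-IWP2 replicate 6 (23477 against 21816) of Day 12.

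Isoform ratios compare 2 genes within a library, so they do not depend on how libraries are scaled. MYH7 made up 3.26% and 2.64% of MYH6 and MYH7 together in NP-IWP2 on Day 12, 6.85% and 4.84% in P-DF and 0.949% and 5.95% in P-IWP2. On Day 16 its share was 61.4% and 45.7% in NP-IWP2, 96.0% and 97.1% in P-DF and 96.7% and 94.1% in P-IWP2. From counts, the Day 16 shares were 56.9% and 41.0%, 95.2% and 96.5%, and 96.0% and 92.9%. In the passaged cultures the transcripts of this pair were thus almost all MYH7 by Day 16, while the static ones held both transcripts at similar levels. Protein was not measured. The mean log2 ratio of MYH7 to MYH6 was higher on Day 16 than on Day 12 by 7.95 (two-sided exact permutation test within treatments, p = 0.00926, the smallest these labels allow, adjusted p = 0.0278 over 9 ratio tests). Passaged cultures exceeded static ones by 2.38 within days (exact permutation p = 0.0267, adjusted p = 0.06), which missed the threshold of 0.05 and passed it without replicate 5 (difference 2.72, adjusted p = 0.0208).

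On Day 12 the share of MYL2 in MYL2 and MYL7 together was 0.0095% and 0.0129% in NP-IWP2, 0.162% and 0.06% in P-DF, and 0.0126% (replicate 5) and 0.218% in P-IWP2. On Day 16 the share was 2.06% and 0.287% in NP-IWP2, 30.8% and 27.2% in P-DF and 17.8% and 17.3% in P-IWP2, and from counts 16.9% to 30.2% over the 4 passaged libraries. Transcripts of the regulatory light chain therefore remained mostly of the atrial form in all cultures, also where those of the heavy chain were mostly of the ventricular form. The log2 ratio of MYL2 to MYL7 was higher on Day 16 by 7.54 (exact permutation p = 0.00926, the smallest possible, adjusted p = 0.0278). It was higher in passaged than in static cultures by 3.88 (exact permutation p = 0.00444, the smallest possible, adjusted p = 0.0278).

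MYL3 made up 32.9% ± 0.961 of MYL3 and MYL4 together in NP-IWP2 on Day 12, 35.8% ± 1.56 in P-DF and 36.3% ± 3.27 in P-IWP2 (SD, n = 2). On Day 16 the share was 33.5% ± 1.58 in NP-IWP2, lower at 30.4% ± 1.27 in P-DF and lowest at 24.1% ± 2.39 in P-IWP2. From counts the share ran from 44.9% to 51.8% on Day 12 and from 33.1% to 47.6% on Day 16. The log2 ratio was lower on Day 16 by 0.39 (a difference of -0.39, exact permutation p = 0.0463, adjusted p = 0.0833), which did not pass. Passaging gave a difference of -0.12 (exact permutation p = 0.476). P-IWP2 and P-DF differed by -0.22 in this ratio, by -0.76 in that of MYL2 to MYL7 and by -0.85 in that of MYH7 to MYH6, with exact permutation p of 0.222, 0.389 and 0.333 and none past the threshold (the smallest possible was 0.0556, so this comparison could not pass). FPKM rest on the summed exon lengths of each gene, and with the lengths of the MANE transcripts the log2 ratios shift in every library alike, by -0.29 for MYH7 to MYH6, by -0.40 for MYL2 to MYL7 and by 0.73 for MYL3 to MYL4.

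**Figure D2:**
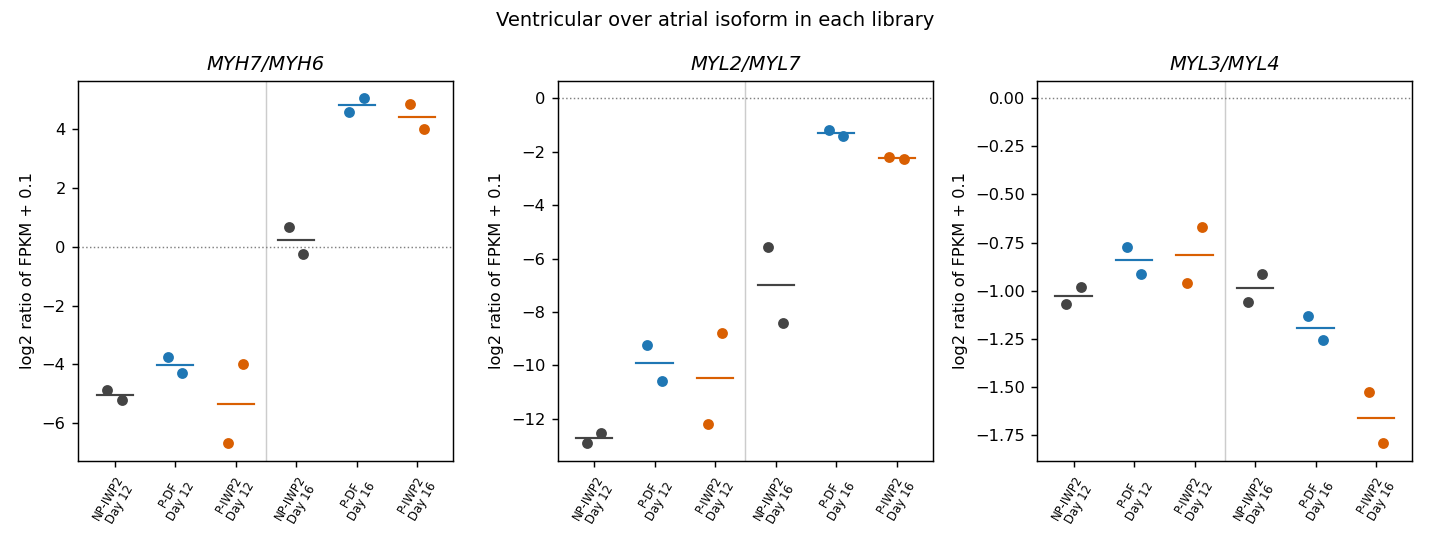
Log2 ratio of the ventricular to the atrial isoform of each pair, from FPKM, in the 6 groups. Points are libraries and bars are group means (n = 2). Positive values mean a higher level of the ventricular gene. The ratio of MYH7 to MYH6 lies at -6.69 to -3.76 on Day 12 and at 3.98 to 5.04 in the passaged cultures on Day 16. That of MYL2 to MYL7 reaches -2.26 to -1.17 in those passaged cultures. That of MYL3 to MYL4 lies at -1.66 to -0.82 in the group means.

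The summed level of each kind of chain shows how far the totals moved. Heavy chains summed to 1564 and 1820 FPKM in NP-IWP2 and P-DF on Day 12 as group means, and to 959, 2583 and 2608 in NP-IWP2, P-DF and P-IWP2 on Day 16. Regulatory light chains summed to 2797 and 2243 FPKM on Day 12 and to 1726, 5204 and 6475 on Day 16. Essential light chains summed to 741 and 1219 FPKM on Day 12 and to 908, 1781 and 2108 on Day 16. In P-IWP2 on Day 12 the sums of the 3 kinds were 752, 1113 and 222 FPKM in replicate 5 and 1832, 1961 and 1313 in replicate 6. All 3 sums were higher in both passaged groups than in the static group on Day 16. In bulk RNA, fewer cells of a type and less RNA per cell cannot be told apart.

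The question of whether passaging went with a different myosin makeup was tested per gene with edgeR's quasi-likelihood test over all 19505 genes. On Day 16, MYH6 fell and MYL2, MYL7 and MYH7B rose in P-DF against NP-IWP2, 4 of the 7, where 15.3% of all genes were called. In P-IWP2 against the same static libraries, MYH6 fell and MYL2 and MYL7 rose, 3 of the 7, where 17.1% of all genes were called. MYL2 differed most, with a log2 fold change of 6.31 ± 1.25 (SE, adjusted p = 0.0113) in P-DF and 5.95 ± 1.23 (adjusted p = 0.0126) in P-IWP2. MYH6 fell by 2.02 ± 0.46 on the log2 scale (adjusted p = 0.0196) in P-DF and by 1.56 ± 0.45 (adjusted p = 0.0447) in P-IWP2. MYL7 rose by 1.34 ± 0.31 (adjusted p = 0.0215) in P-DF and by 1.92 ± 0.32 (adjusted p = 0.00515) in P-IWP2. MYH7B rose by 1.09 ± 0.32 (adjusted p = 0.0475) in P-DF, and its difference in P-IWP2 was 0.63 ± 0.32 (adjusted p = 0.195).

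MYH7 did not pass in either comparison in the main edgeR fit. Its log2 difference was 2.46 ± 0.97 in P-DF (edgeR adjusted p = 0.116) and 2.50 ± 0.97 in P-IWP2 (adjusted p = 0.105). DESeq2 on all 12 libraries called MYH7 in both, with 5 of the 7 called in each (18.4% and 20.1% of all genes). Without the filter (11.6% and 12.3%) and with only the groups compared (40.1% and 29.2%), edgeR called all 7 in both. Neither limma nor total-count scaling called MYH7. The 6 groups share one estimate of the spread, and the 2 P-IWP2 libraries of Day 12 differ widely in MYH7. Without replicate 5 its adjusted p was 3.53e-05 for P-DF and 3.14e-05 for P-IWP2, and all 7 genes were called in both comparisons, where 32.4% and 34.8% of all genes were called. Without its partner, replicate 6, all 7 were again called in both (31.9% and 34.2% of all genes). MYL4 differed by 1.25 ± 0.64 (adjusted p = 0.210) and 1.68 ± 0.64 (adjusted p = 0.102), and MYL3 by 1.07 ± 0.68 (adjusted p = 0.315) and 1.01 ± 0.68 (adjusted p = 0.326).

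The calls also rested on single libraries of Day 16. With NP-IWP2 replicate 2 left out, none of the 7 was called in either comparison by edgeR (4.21% of all genes in each), and the remaining static library was then assumed to vary like the other groups. Without NP-IWP2 replicate 1, 1 of the 7 was called in P-DF, which was MYL2, and 2 in P-IWP2, which were MYL2 and MYL7 (5.42% and 6.61% of all genes). Without P-DF replicate 3 or 4 of Day 16, none was called in P-DF (3.36% and 2.59% of all genes), and without P-IWP2 replicate 6 of Day 16, 1 was called in P-IWP2, which was MYL7 (4.75% of all genes). MYH6 in P-IWP2 lost its call without any 1 of the 10 libraries other than those 2 of P-IWP2 on Day 12. MYH7B in P-DF lost its call likewise.

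Scaled to the 6 cardiomyocyte reference genes in place of all genes, an alternative chosen after seeing the data, MYH6 and MYL2 were called again, MYH7 was called too, and MYL7 and MYH7B were not. This scaling put the median of all genes on Day 16 at -1.02 for P-DF and at -1.26 for P-IWP2, from -0.02 and -0.03. MYH6 (-3.03 and -2.86), MYH7 (1.59 and 1.42) and MYL2 (5.64 and 5.05) were then called in P-DF and P-IWP2, 3 of the 7 in each, where 19.1% and 41.9% of all genes were called, nearly all of them lower. MYL7 was at 0.38 and 0.72, MYH7B at 0.09 and -0.56, MYL3 at 0.10 and -0.18, and MYL4 at 0.32 and 0.48, none of them called. The calls of MYL7 and MYH7B on Day 16 were thus not kept under this scaling, which rests on the summed counts of the 6 genes. In FPKM, ACTC1 makes up most of such a sum (1807 and 4104 in the static libraries of Day 16). Relative to the geometric mean of these reference genes, MYH6 stood on Day 16 at 1.68 in NP-IWP2, at 0.204 for P-DF and at 0.241 for P-IWP2, and MYH7 at 1.96, 5.71 and 5.17. By that measure MYL7 was at 6.15 to 7.13, 7.84 to 9.26 and 10.1 to 12.0 over the libraries of these groups. Means of MYH7B were 0.0369, 0.0391 and 0.0252.

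**Figure D3:**
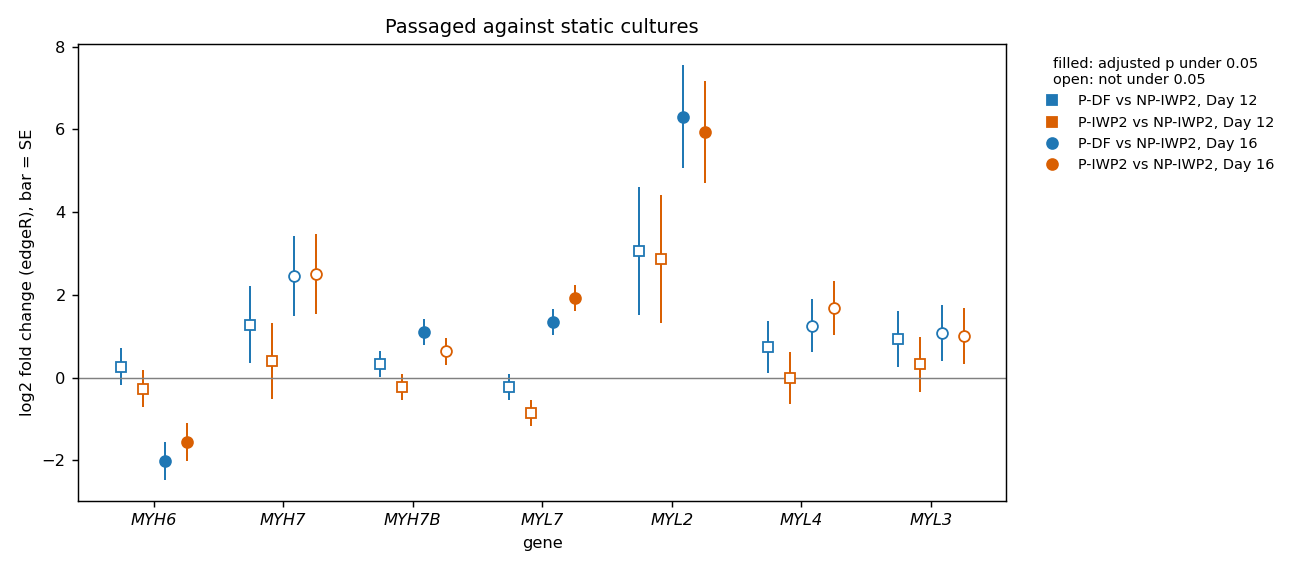
Log2 fold change of each of the 7 genes in P-DF and in P-IWP2 against NP-IWP2, on Day 12 and on Day 16, from edgeR; bars are SE and filled points have an adjusted p under 0.05. No gene is filled on Day 12, and on Day 16 MYH6 lies at -2.02 and -1.56 and MYL2 at 6.31 and 5.95.

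On Day 12 none of the 7 was called in P-DF against NP-IWP2, where 4.01% of all genes were called by edgeR. None had an unadjusted p under 0.05, and DESeq2 and limma also called 0. In P-IWP2 against NP-IWP2 none was called either, where 1.66% of all genes were called. Here 1 gene, MYL7 with a log2 difference of -0.85 ± 0.31 (edgeR adjusted p = 0.296), had an unadjusted p under 0.05, and DESeq2 and limma called 0. The MYH7 and MYL2 differences in P-DF were 1.28 ± 0.93 and 3.05 ± 1.55 (adjusted p = 0.454 and 0.283). Without replicate 5, 3 of the 7 were called in P-DF (21.9% of all genes) and 3 in P-IWP2 (15% of all genes), and without replicate 6 the counts were 3 and 6 (21.5% and 14.3% of all genes). The 2 passaged groups share their static controls on each day, so the comparisons are not independent.

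Between Day 12 and Day 16 the largest log2 differences among the 7 were those of MYH6, MYH7 and MYL2 in each culture. In P-DF, MYH6 fell by 3.98 ± 0.50 on the log2 scale (edgeR adjusted p = 0.00189), MYH7 rose by 4.81 ± 1.07 (adjusted p = 0.0203) and MYL2 rose by 9.52 ± 1.46 (adjusted p = 0.00454), 3 of the 7, where 13.6% of all genes were called. MYL7 was at 0.98 ± 0.31 in P-DF (adjusted p = 0.0673). In P-IWP2, MYH6 fell by 2.99 ± 0.48 (adjusted p = 0.00377), and MYH7 rose by 5.73 ± 1.12 (adjusted p = 0.00803), MYL2 by 9.33 ± 1.45 (adjusted p = 0.00343), MYL7 by 2.18 ± 0.32 (adjusted p = 0.00281) and MYL4 by 2.09 ± 0.65 (adjusted p = 0.0424). These were 5 of the 7, where 27% of all genes were called. Without replicate 5 the same 5 genes were called in P-IWP2 (23.7% of all genes), with smaller log2 changes for MYH7 (4.82), MYL2 (8.35), MYL7 (1.75) and MYL4 (1.30) and a larger one for MYH6 (-3.53). Scaled to the cardiomyocyte reference genes, MYL7 and MYL4 were not called over time in P-IWP2 (0.58 and 0.71), while MYH6, MYH7 and MYL2 were called in both passaged cultures. Under that scaling 78.2% of all genes were called in P-IWP2 and 12.1% in P-DF. The MYL4 call was also lost on leaving out any library but replicate 5 or 6 of Day 12.

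In NP-IWP2 none of the 7 was called between the days, where 1.98% of all genes were called by edgeR. MYH6 was at -1.70 ± 0.46 (adjusted p = 0.0923), MYH7 at 3.63 ± 1.02 (adjusted p = 0.104) and MYL2 at 6.26 ± 1.47 (adjusted p = 0.0639). These 3 had an unadjusted p under 0.05, DESeq2 called 3 (5.56% of all genes) and limma 1 (3.2%), and 4 of the 7 were called without replicate 5 or without replicate 6 of P-IWP2 on Day 12 (17.1% and 16.9%). The libraries of the 2 days did not overlap for any of the 3 genes. The share of all genes without such overlap was not computed, so this is a description only. In P-DF, 7 of the 7 were called over time without replicate 5 (29.2% of all genes) and 1, MYH6, without replicate 4 of P-DF on Day 12 (2.58%).

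**Figure D4:**
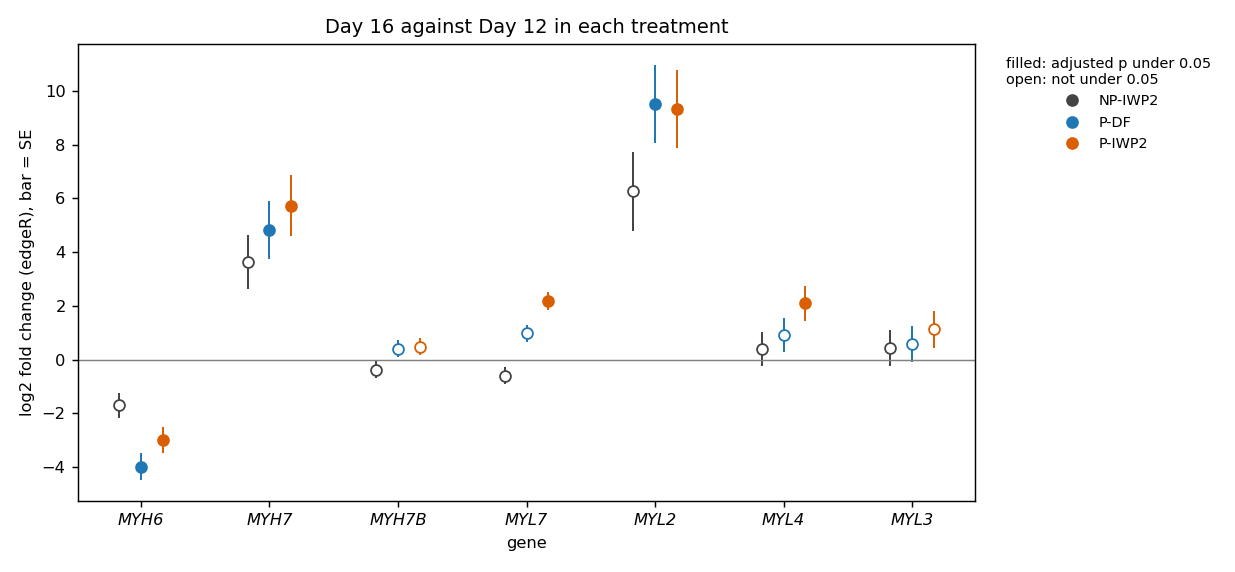
Log2 fold change from Day 12 to Day 16 of each of the 7 genes in NP-IWP2, P-DF and P-IWP2, from edgeR; bars are SE and filled points have an adjusted p under 0.05. MYH6 lies below 0 and MYH7 and MYL2 above 0 in all 3 cultures, and MYL7 lies at -0.60 in NP-IWP2 and at 0.98 and 2.18 in the passaged cultures.

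Whether the course over time differed between passaged and static cultures was tested as an interaction. In P-IWP2, MYL7 was the gene of the 7 that passed, with a difference of 2.77 ± 0.44 between the log2 changes (edgeR adjusted p = 0.0218), where 1.84% of all genes were called. Without replicate 5 the MYL7 difference was 2.35 (adjusted p = 7.77e-05), and MYH6 passed as well at -1.83 (adjusted p = 0.00756), where 7.89% of all genes were called. In P-DF none passed, where 0.482% of all genes were called by edgeR. MYL7 was at 1.57 ± 0.44 there (adjusted p = 0.168) and MYH6 at -2.28 ± 0.63 (adjusted p = 0.169), both with an unadjusted p under 0.05, DESeq2 called 2 (2.57% of all genes) and limma 0. MYH7 and MYL2 had interactions of 1.18 ± 1.30 and 3.26 ± 2.16 in P-DF and of 2.10 ± 1.31 and 3.07 ± 2.15 in P-IWP2, none past the threshold. Their shifts between the days were not shown to differ between passaged and static cultures.

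P-IWP2 and P-DF were compared to see whether IWP2 mattered in passaged cells. None of the 7 was called on Day 12 or on Day 16 by edgeR, where 0% of all genes were called on Day 12 and 0% on Day 16. Over all genes, 2061 had an unadjusted p under 0.05 on Day 12 and 1567 on Day 16. DESeq2 called 174 and 114 genes and limma 0 and 1, with none of the 7 among them. No member had an unadjusted p under 0.05. On Day 16 the log2 differences ran from -0.46 ± 0.31 in MYH7B to 0.58 ± 0.31 in MYL7. Without replicate 5 or without replicate 6 of Day 12, 1 of the 7 was called on Day 16 (2.49% and 2.44% of all genes), and without replicate 6 alone 6 were called on Day 12 (29.2% of all genes).

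Related genes were described by lists. Their counts of calls on Day 16, here and below, stand against 15.3% of all genes called in P-DF and 17.1% in P-IWP2. Counts without replicate 5 stand against the larger shares given above for that fit. Of the other sarcomeric myosins, known chiefly from skeletal muscle, 4 of 13 passed the filter, and MYL6B, a light chain also made outside muscle, stood highest at 10.8 to 15.1 FPKM. MYH15 was the 1 that fell in each passaged group on Day 16 (-2.24 and -2.32). Thick filament partners and chaperones had a median log2 difference of 0.77 in P-DF and 0.97 in P-IWP2 on Day 16, against -0.02 and -0.03 over all genes. Of the 11 tested, MYBPC3, the cardiac myosin-binding protein C, rose by 1.35 and 1.48 and TTN, the giant spring of the sarcomere, by 1.26 and 1.33, while UNC45A fell by 0.73 and by 0.54. MYOM2, an M-band protein, fell by 3.46 in P-IWP2. Without replicate 5, 6 of these 11 rose and 2 fell in P-DF, and 7 rose and 2 fell in P-IWP2.

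Kinases and phosphatase subunits that act on the regulatory light chain had medians of 0.40 and 0.46. Of the 7 tested, 2 rose in P-DF, PPP1R12B (1.51) and PPP1R12C (0.72), both targeting subunits of myosin phosphatase. In P-IWP2 3 rose, PPP1R12B (1.72), the catalytic subunit PPP1CB (0.80) and PPP1R12C (0.76). Among 8 smooth and non-muscle myosins, MYH10 fell by 0.87 in P-DF and MYL9, a smooth muscle light chain, rose by 1.79 in P-IWP2, with medians of 0.02 and 0.57. Without replicate 5, 1 of these 8 rose and 3 fell in P-DF, and 4 rose and 1 fell in P-IWP2.

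Of 18 factors known to control the myosin isoform genes and tested on Day 16, SOX6 fell and MYOCD rose in P-DF. In P-IWP2, SOX6 and TBX5 fell and MYOCD and TEAD1 rose. The medians were 0.07 and 0.003. With 15.3% and 17.1% of all genes called, the list was not set apart by its number of calls, so these genes are a description only. SOX6, a repressor of slow fibre genes in skeletal muscle, was at 3.05 to 3.84 FPKM in the static and 0.4 to 0.67 in the passaged libraries of Day 16, and fell by 2.25 ± 0.25 (edgeR adjusted p = 0.000802) in P-DF and by 2.59 ± 0.25 (adjusted p = 0.000453) in P-IWP2. MYOCD, a coactivator of SRF, rose by 0.65 and 0.77. TBX5, which also stands in the atrial list, fell by 1.52 in P-IWP2, and TEAD1 rose by 0.69. Without replicate 5, 6 of the 18 rose and 4 fell in P-DF, and 4 rose and 4 fell in P-IWP2. NR2F1 was at 0 counts in all 4 passaged libraries of Day 16 and at 68 to 72 in the static ones, at least 22.7-fold lower in P-DF and 24.8-fold in P-IWP2 against 3 counts per library. It was low in the static libraries too (0.86 to 0.97 FPKM), and edgeR did not call it in either comparison.

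Other atrial and ventricular genes did not follow the myosin pairs as a block. Of 12 other atrial genes, 1 rose and 1 fell in P-DF (median -0.37) and 2 rose and 3 fell in P-IWP2 (median -0.38). SLN, which encodes the atrial calcium pump inhibitor sarcolipin, had 176 and 283 counts in the static libraries of Day 16 and 0 in both P-DF ones, at least 73.1-fold lower, and it fell in P-IWP2 too, where it had 0 and 2 counts. NPPA, the atrial natriuretic peptide gene, rose by 3.40 in P-IWP2, PAM rose by 1.14 and 1.40, and GJA5, an atrial gap junction gene, fell by 4.25 in P-IWP2. Of 9 other ventricular genes, PLN, the ventricular counterpart of SLN, rose by 2.86 and 2.45 and GJA1 fell by 2.40 in P-IWP2, with medians of 0.68 and -0.19. Without replicate 5, 2 rose and 4 fell of the atrial list in P-DF and 3 rose and 5 fell in P-IWP2, and 5 rose and 2 fell of the ventricular list in P-DF and 3 rose and 3 fell in P-IWP2.

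The cultures also differed in other cell types. All 7 hepatic markers fell in both passaged groups on Day 16, and their summed level was 691 to 840 FPKM in the static and 14.1 to 20.1 in the passaged libraries, with AHSG at 0 in P-DF and FGB at 0 in P-IWP2. On Day 12 their sum was 406 to 562 FPKM in the static and 5.96 to 8.26 in the passaged libraries. Fibroblast and stromal markers (6 of 7 fell in P-DF and 7 in P-IWP2) summed to 1361 to 1385 FPKM in static and 23.9 to 38.8 in passaged libraries of Day 16. Epicardial markers (6 of 6 fell in each) summed to 69.6 to 99.2 FPKM and 0.3 to 0.84, with TCF21 at 0 in P-IWP2. Endothelial markers (1 of 6 fell in each, TEK) summed to 49.8 to 50.1 FPKM and 10.1 to 15.02, most of it KDR (39.2 to 39.3 FPKM in static and 9.89 to 14.97 in passaged libraries), with PECAM1 at 0 in P-IWP2. Without replicate 5, 6 of the 6 endothelial markers fell in P-DF and 4 in P-IWP2.

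Cardiomyocyte reference genes summed to 2710 to 5292 FPKM in the static and 5917 to 10262 in the passaged libraries of Day 16, so cardiomyocyte transcripts were present in every group, with 1 of 6 rising in P-DF (ACTN2, 1.62) and 2 in P-IWP2 (ACTN2, 1.78, and TPM1, 0.96). Without replicate 5, 5 and 6 of these 6 rose. Smooth muscle markers summed to 222 to 454 FPKM and 241 to 933, with 1 of 6 falling in P-DF, ACTA2 (-2.89), and 2 rising in P-IWP2, CNN1 (2.45) and LMOD1 (1.05). Skeletal muscle markers, of which 2 of 6 were tested and none was called by edgeR, summed to 98 to 143 FPKM and 167 to 236 on Day 16, nearly all of it CKM. The part of these other cells in the differences of the myosin genes between static and passaged cultures was not tested. On Day 16 the share of MYH7 in its pair with MYH6 was 94.1% to 97.1% in passaged and 45.7% to 61.4% in static libraries. This share does not depend on the scaling of libraries, but whether it depends on the makeup of the cultures was not tested either.

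**Figure D5:**
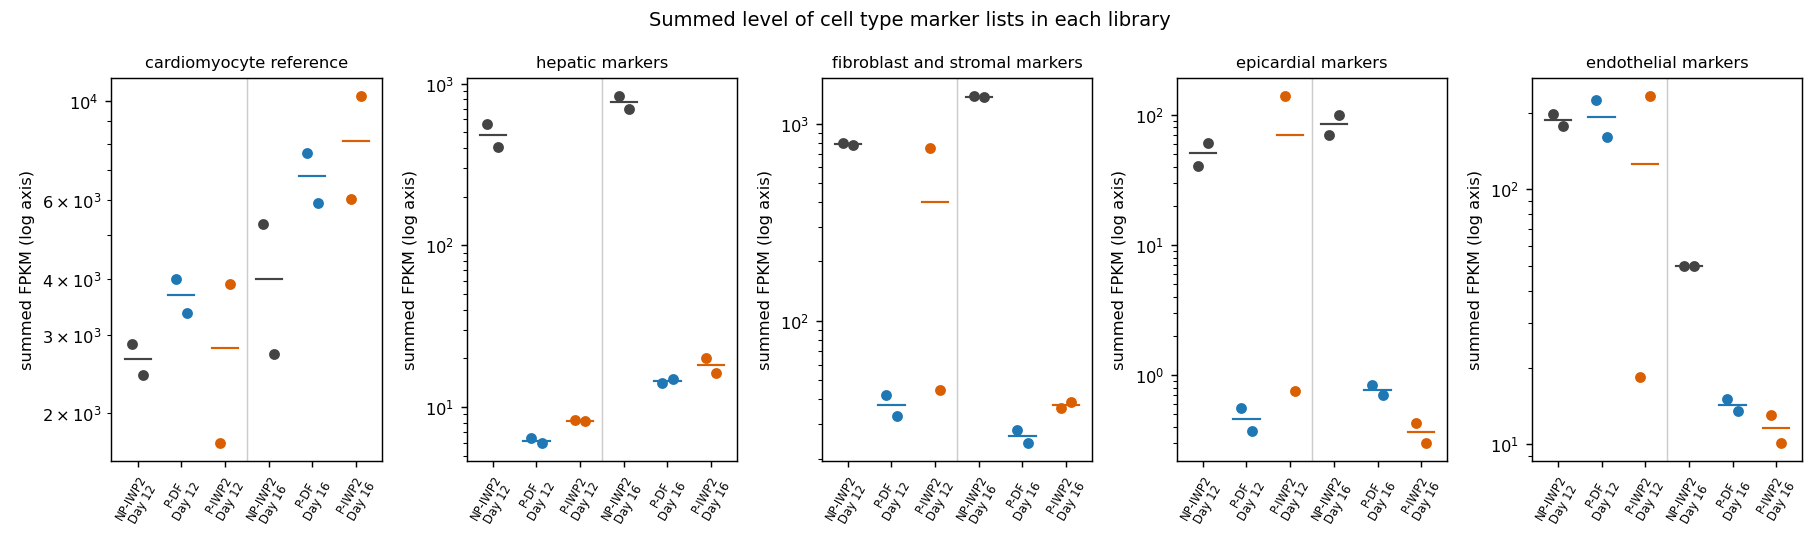
Summed FPKM of the marker genes of each cell type (log axis) in the 6 groups; points are libraries and bars are group means (n = 2). Hepatic, fibroblast and epicardial sums are high in the static libraries (691 to 840 FPKM hepatic on Day 16) and low in the passaged ones (14.1 to 20.1), except for fibroblast and epicardial sums of P-IWP2 replicate 5 on Day 12.

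Genes with the most similar pattern were taken by Pearson's r of log2 CPM over the 12 libraries, which share cultures and depth, so r is a description only. Their calls come from these same libraries, so a likeness in calls follows from the choice and is no separate evidence. For MYH6 these were CACNG6 (r = 0.985), BMPER (0.979) and ADCY1 (0.978), and all 3 fell in both passaged groups on Day 16. MYH7 was nearest to LMOD2 (r = 0.998), MED21 (0.994) and AKAP6 (0.989), none of which was called on Day 16 by edgeR. LMOD2 had a log2 difference of 2.53 ± 0.86 in P-DF (edgeR adjusted p = 0.0767) and 2.70 ± 0.86 in P-IWP2 (adjusted p = 0.0603). MYL2 was nearest to BMT2 (r = 0.992), STBD1 (0.992) and SMYD2 (0.991), all of which rose in both passaged groups. For MYL7 they were SPTB (r = 0.991), ECSIT (0.977) and ACO1 (0.973), of which SPTB and ECSIT rose in both groups and ACO1 rose in P-IWP2.

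MYL4 was nearest to XIRP1 (r = 0.992), TNNI1 (0.992) and LAMB1 (0.991), and MYL3 to PDLIM5 (r = 0.988), FBLIM1 (0.988) and TMOD1 (0.986). None of these 6 was called on Day 16 by edgeR. MYH7B was nearest to QKI (r = 0.970), SMIM19 (0.968) and EPS15L1 (0.963), of which QKI rose in P-DF by 0.88 ± 0.26 (edgeR adjusted p = 0.0468).

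MYH6 and MYH7 are close copies, and 14.8% of all 50-base windows of the MYH6 transcript also occur in MYH7, 5.29% of 100-base windows and 4.25% of 150-base windows, so part of their reads could have been counted for the other gene. The gene ENSG00000289973, with no symbol, overlaps MYH6 on the same strand and had 157 to 1352 counts. MYL3 overlaps PTH1R on the opposite strand, which had 1009 to 1707 counts.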

How the data were processed

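RNA was extracted with RNAiso Plus, and cDNA was made with the NEBNext Single Cell/Low Input module and turned into libraries with the SMRTbell prep kit 3.0. Per the labels and the submitters' processing notes, the authors used Cutadapt 1.9.1, HISAT2 2.0.1, HTSeq 0.6.1 and DESeq2 on hg38. The deposited table holds raw counts per gene for 12 libraries, and FPKM that the authors made from these counts, exon length and library total. 20417 of its 61806 genes have no symbol.

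Counts were tested in edgeR 4.0.16 (R 4.3.3) with TMM scaling and filterByExpr, in a quasi-likelihood model of 6 groups, with Benjamini-Hochberg adjustment over all genes tested and a threshold of 0.05. SE are the log2 fold change over the square root of F. Scripts were tested on simulated data. Ratios used log2((FPKM + 0.1)/(FPKM + 0.1)) per library and exact permutation tests. Alternatives were total-count scaling, DESeq2 1.42.0, limma 3.58.1 on log2(FPKM + 1), no filter, only the groups compared, a replicate block, each library left out and, chosen after seeing the data, scaling to 6 cardiomyocyte reference genes. The floor was 3 counts per library.

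The members, lists and tests were chosen with earlier results of these data known. Of each list, up to 4 genes are named, those with the largest absolute log2 fold change among the called, and of the genes most like a member, the 3 with the highest r. Sequences are from RefSeq (GRCh38.p14).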

Additional observations from a re-analysis of the deposited data

Results flagged for a closer look

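The course of MYL7, the atrial regulatory light chain, from Day 12 to Day 16 differed between P-IWP2 and NP-IWP2 by 2.77 ± 0.44 on the log2 scale (SE, edgeR interaction term, adjusted p = 0.0218, and 2.35 with adjusted p = 7.77e-05 without replicate 5 of P-IWP2 on Day 12), which is why it stands here. MYL7 went from 2956 and 2637 FPKM to 1836 and 1573 in the static libraries and from 1113 and 1957 to 5313 and 5369 in P-IWP2. The same interaction in P-DF was 1.57 ± 0.44 (adjusted p = 0.168). Over 19 alternatives the value in P-IWP2 ran from 1.56 to 3.40 with adjusted p from 4.81e-21 to 0.13, and it was called in 11 of them. It was not called without any 1 of the 4 NP-IWP2 libraries, without either P-DF library of Day 16, without P-IWP2 replicate 6 of Day 16, or with only the groups compared.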

How the results depend on the processing

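Of the log2 fold changes of single genes under other settings, 385 kept direction and side of the threshold, 77 came to pass it, 13 no longer did and 21 turned sign, and without 1 library the numbers were 784, 63, 56 and 21. All 30 ratio tests under other settings kept theirs. With edgeR without the filter, the genes of the 7 that were called numbered 4 and 2 on Day 12 (P-DF, P-IWP2; 7.7% and 3.79% of all genes), 7 and 7 on Day 16 (11.6% and 12.3%), 4 between P-IWP2 and P-DF on Day 12 (4.18%), 4 over time in NP-IWP2 (5.07%), 6 in P-DF (9.5%), and 4 and 6 in the interactions (2.79% and 6.77%). With only the groups compared they were 5 in P-DF on Day 12 (29.8%), 7 and 7 on Day 16 (40.1% and 29.2%), 6, 7 and 0 over time in NP-IWP2, P-DF and P-IWP2 (28.3%, 37.3% and 0%), and 3 and 0 in the interactions (12.6% and 0.194%). DESeq2 gave 5 in P-IWP2 on Day 16 (20.1%), 3 over time in NP-IWP2 (5.56%) and 2 in the P-DF interaction (2.57%). limma gave 1 over time in NP-IWP2 (3.2%). Cardiomyocyte reference scaling gave 3 over time in NP-IWP2 (0.369%) and 1 and 2 in the interactions (0.185% and 10.1%). The cause was not tested.

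Fits without 1 library leave 1 library in a group, so their counts are not listed here. In every comparison the number of the 7 called changed for at least 1 library left out, though not for each, and the share of all genes called changed too. In P-IWP2 against NP-IWP2 on Day 16 it changed for each. Ratio differences ran from 7.50 to 8.40 (MYH7/MYH6, days), 2.15 to 2.72 (passaging) and -1.52 to -0.17 (IWP2), for MYL2/MYL7 from 6.98 to 8.10, 3.17 to 4.59 and -1.60 to 0.0849, and for MYL3/MYL4 from -0.43 to -0.34, -0.17 to -0.06 and -0.29 to -0.15.

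Signs turned under reference scaling for MYH6 in P-DF on Day 12 (-0.11), MYH7 between P-IWP2 and P-DF on Day 16 (-0.17), MYH7B (-0.0575 in P-DF on Day 12, -0.56 in P-IWP2 on Day 16, -0.57 and -1.02 over time in P-DF and P-IWP2, the last with adjusted p = 0.0365, and -0.31 in the P-IWP2 interaction), MYL3 (-0.18, -0.41, -0.20, and -0.44 and -0.23 in the interactions) and MYL4 (-0.0104 and -0.0544 over time in NP-IWP2 and P-DF, -0.044 in the P-DF interaction). limma turned MYH7 (-0.65 in P-IWP2 on Day 12, -0.000319 between P-IWP2 and P-DF on Day 16) and MYL3 (-0.31). Total counts turned the MYL3 interaction (-0.00321), and DESeq2 and only the groups compared turned MYL4 in P-IWP2 on Day 12 (0.00204 and 0.0121).

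Without 1 library, values with turned signs ran in P-IWP2 on Day 12 for MYH6 from -1.18 to 0.27, MYH7 -2.86 to 1.32, MYH7B -0.98 to 0.26, MYL2 -1.30 to 3.85, MYL3 -1.84 to 1.14 and MYL4 -1.91 to 0.79. Between P-IWP2 and P-DF on Day 12 they ran for MYH6 from -1.43 to 0.0158, MYH7 -4.13 to 0.0454, MYL2 -4.34 to 0.81, MYL3 -2.77 to 0.21 and MYL4 -2.65 to 0.0512, and on Day 16 for MYH7 from -0.0195 to 0.12 and MYL3 -0.19 to 0.10. MYH7B over time in P-IWP2 ran from -0.00372 to 1.25, and the MYL3 interactions from -0.0658 to 0.37 and -0.13 to 2.85.

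Same-numbered libraries of the 2 days did not deviate together (correlations 0.0754, -0.00154 and -0.031), so the numbers were not taken as pairs. With the replicate block the counts were 0, 3 and 5 over time and 0 and 1 in the interactions, as without it, and the log2 ratio differences were 7.95 and 7.54 (exact permutation, adjusted p = 0.0469) and -0.39 (adjusted p = 0.125). At 2 libraries per group, and with 3 counts of MYL2 in a library, smaller differences were not detectable.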
